A study of Mus musculus with 2 samples.

Results

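The G2 and M phase genes described here are 53 protein-coding genes, chosen by symbol from a list of genes used at the end of the cell cycle, out of 32285 genes in the deposited tables. All 53 were found. They were read in single-cell RNA-seq of dissociated mouse retina at postnatal day 7, in 2 libraries. The Mettl14-cKO library came from Mettl14 fl/fl mice that carry an Egfp/Cre transgene, which drives Cre recombinase in retinal progenitors, and the control library came from Mettl14 fl/fl or fl/wt mice, which the labels list without the Cre transgene. Mettl14 encodes a subunit of the enzyme complex that places N6-methyladenosine on RNA. Blood vessels, microglia and astrocytes of the retina arise outside this lineage. Neither the number of animals behind each library nor the control genotype used is given in the labels. With 1 library per genotype no test of the genotypes was possible, and every interval below covers counting error only, not the spread between animals.

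A cell that has copied its DNA passes through G2 and then divides in M phase. Cyclin-dependent kinase 1 with its B-type cyclins drives entry into mitosis, condensin and topoisomerase shape the chromosomes, kinesins and spindle proteins move them, and the anaphase-promoting complex ends mitosis by marking cyclins and other proteins for degradation. Transcription of many of these genes is held low outside the late cell cycle through promoter elements named CHR, usually TTTGAA, and CCAAT, which the DREAM and MuvB complexes and NF-Y read. In the mouse retina, progenitor divisions end during the first postnatal week or soon after, and mature neurons and resting Müller glia do not divide.

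Promoter windows of 6 members are shown because the results below turn on them: 5 report dividing cells, and Tubb4b was read mostly from other cells. Each runs from 250 bases before to 50 bases after the RefSeq transcription start, in build GRCm38.p6, 5′ to 3′ on the strand of the gene, and capitals mark TTTGAA or CCAAT on either strand.
Mki67, chr7:135716330-135716629, minus strand: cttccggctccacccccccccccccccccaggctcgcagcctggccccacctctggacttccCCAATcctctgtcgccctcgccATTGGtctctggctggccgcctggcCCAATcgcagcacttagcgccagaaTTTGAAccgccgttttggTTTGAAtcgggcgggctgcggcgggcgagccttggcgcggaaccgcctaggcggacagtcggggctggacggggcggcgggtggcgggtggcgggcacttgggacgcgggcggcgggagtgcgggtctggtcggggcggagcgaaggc
Cdk1, chr10:69352863-69353162, minus strand: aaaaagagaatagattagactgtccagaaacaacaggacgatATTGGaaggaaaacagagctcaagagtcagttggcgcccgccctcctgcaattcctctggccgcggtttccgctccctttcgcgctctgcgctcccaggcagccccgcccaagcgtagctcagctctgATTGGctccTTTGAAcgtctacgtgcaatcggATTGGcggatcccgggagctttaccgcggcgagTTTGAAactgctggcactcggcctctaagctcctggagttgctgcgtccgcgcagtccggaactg
Ube2c, chr2:164769679-164769978, plus strand: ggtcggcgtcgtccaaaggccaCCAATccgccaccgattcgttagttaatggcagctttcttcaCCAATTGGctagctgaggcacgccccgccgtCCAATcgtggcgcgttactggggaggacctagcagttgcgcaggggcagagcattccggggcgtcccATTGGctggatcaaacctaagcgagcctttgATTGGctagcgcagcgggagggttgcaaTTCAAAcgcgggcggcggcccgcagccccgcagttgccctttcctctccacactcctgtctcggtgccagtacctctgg
Cdc20, chr4:118437294-118437593, minus strand: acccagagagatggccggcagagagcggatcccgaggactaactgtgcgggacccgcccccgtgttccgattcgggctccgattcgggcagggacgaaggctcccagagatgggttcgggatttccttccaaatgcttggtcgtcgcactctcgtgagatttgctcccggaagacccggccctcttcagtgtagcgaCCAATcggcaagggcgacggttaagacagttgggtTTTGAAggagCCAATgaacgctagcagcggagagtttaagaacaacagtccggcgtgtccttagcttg
Ccnb2, chr9:70421505-70421804, minus strand: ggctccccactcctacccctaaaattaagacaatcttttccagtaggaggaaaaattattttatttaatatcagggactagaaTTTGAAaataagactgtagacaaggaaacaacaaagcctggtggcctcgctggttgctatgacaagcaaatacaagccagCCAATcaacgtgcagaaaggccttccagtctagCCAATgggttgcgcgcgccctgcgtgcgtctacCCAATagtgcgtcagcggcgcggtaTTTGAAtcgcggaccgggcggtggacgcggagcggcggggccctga
Tubb4b, chr2:25224653-25224952, minus strand: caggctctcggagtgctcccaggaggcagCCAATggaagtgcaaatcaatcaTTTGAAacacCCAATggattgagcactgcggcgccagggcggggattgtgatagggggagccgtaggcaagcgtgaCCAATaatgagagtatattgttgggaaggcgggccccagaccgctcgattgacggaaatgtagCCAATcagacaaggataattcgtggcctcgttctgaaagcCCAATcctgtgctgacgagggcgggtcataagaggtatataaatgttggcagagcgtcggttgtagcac
RefSeq windows were matched for 47 of the 53 members, giving 52 windows; Aurkb, Cdc25c, Cdca2, Dlgap5, Smc4 and Tpx2 were not matched. TTTGAA, searched on both strands, was in 34 of 52 windows (65.4%), against 17.9% of 32851 mouse windows of the same length. CCAAT was in 39 of 52 (75.0%), against 37.4%, and both were in 51.9%, against 6.95%. The alternative CHR spelling TTCGAA, which reads the same on both strands and contains neither other motif, was in 9.62% of members' windows and 1.56% of all windows. These counts describe letters only. Tubb4b carried the same motifs, with 1 TTTGAA and 5 CCAAT, so their presence alone did not separate the members that report dividing cells.

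Barcodes with at least 1000 unique molecular identifiers (UMIs, each standing for 1 captured RNA molecule) numbered 13502 in the Mettl14-cKO library and 11426 in the control library, with 58511730 and 54544552 UMIs and medians of 3212 and 3487 UMIs per barcode. The libraries shared 39 cell barcodes. Mettl14 gave 846 UMIs (14.5 counts per 1000000 UMIs of the same cells, CPM) in the Mettl14-cKO library and 1478 UMIs (27.1 CPM) in the control library, a ratio of 0.534 (95% interval 0.490 to 0.581). A 3′ tag need not lie in the deleted exons, so this level checks the labels only in part. Within the G2/M gene-positive cells described next, Mettl14 gave 38 UMIs (20.7 CPM) in Mettl14-cKO and 17 (31.5 CPM) in control, a ratio of 0.658 (0.363 to 1.24).

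Cells were called G2/M gene-positive when at least 2 of 5 members had a UMI: Mki67, the Ki-67 antigen of proliferating cells; Top2a, DNA topoisomerase II alpha; Cdk1; Ube2c, a ubiquitin-conjugating enzyme of the anaphase-promoting complex; and Cenpf, a kinetochore protein of late G2. Because detection depends on depth, each cell was thinned to 1500 UMIs, which left out 1628 Mettl14-cKO and 1464 control barcodes with fewer. More cells were G2/M gene-positive in the Mettl14-cKO library. There they made up 178 of 11874 cells (1.5%, exact binomial 95% interval 1.29 to 1.73), against 36 of 9962 control cells (0.361%, 0.253 to 0.500), and the ratio of the shares was 4.15 (2.89 to 6.11). Without thinning the shares were 2.01% and 0.516%, and the ratio was 3.90 (2.93 to 5.26).

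**Figure D1:**
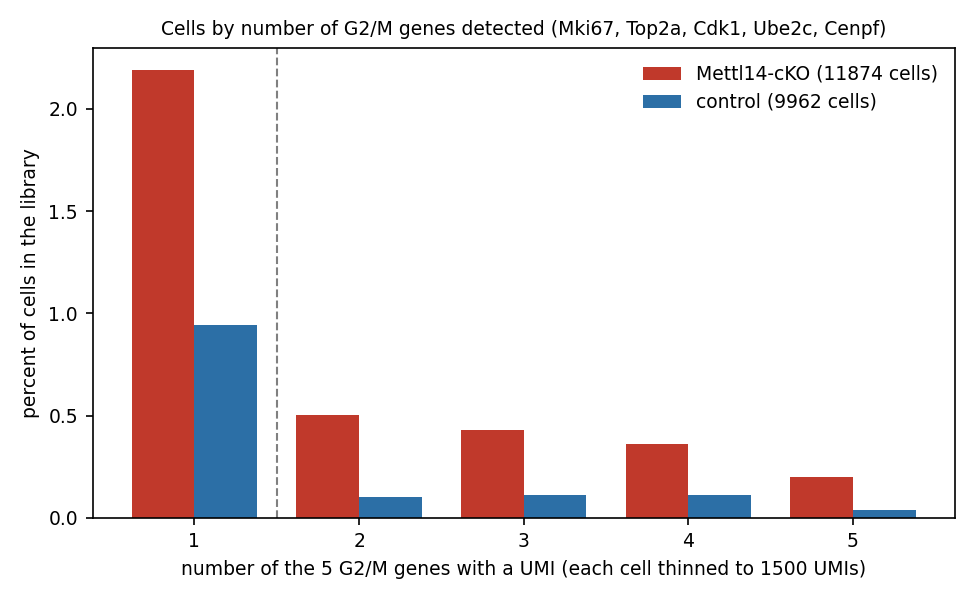
Percent of cells in each library by how many of the 5 G2/M genes had a UMI after each cell was thinned to 1500 UMIs, with Mettl14-cKO in red and control in blue; cells with 0 of the genes are not drawn, and the dashed line marks the minimum of 2 genes. The Mettl14-cKO bar is the taller at every number of genes, from 260 against 94 cells with 1 gene to 24 against 4 cells with all 5.

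The excess was seen at each number of genes. In thinned cells, 60, 51, 43 and 24 Mettl14-cKO cells had 2, 3, 4 and 5 of the genes, against 10, 11, 11 and 4 control cells. A separate set of 10 members (at least 3 of Birc5, Tpx2, Nusap1, Cdca8, Aurkb, Ccnb1, Ccnb2, Bub1, Kif11 and Hmmr) gave 0.977% of Mettl14-cKO cells and 0.251% of control cells, a ratio of 3.89 (2.51 to 6.26). S phase genes that are not members (at least 2 of Rrm2, Hells, Cdc45, Clspn, Uhrf1, Mcm5, Gins2 and Ccne2) marked 0.547% and 0.221%, a ratio of 2.48 (1.51 to 4.22). Of the G2/M gene-positive cells before thinning, 102 of 272 (37.5%) in the Mettl14-cKO library and 25 of 59 (42.4%) in the control library also had the S phase genes.

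Cells were then placed in 32 clusters made without members, other G2/M genes or S phase genes among the variable genes, though histone genes were kept. Among clusters of the retinal lineage, 169 of 11044 Mettl14-cKO cells (1.53%, 1.31 to 1.78) and 29 of 9022 control cells (0.321%, 0.215 to 0.461) were G2/M gene-positive after thinning, a ratio of 4.76 (3.20 to 7.32). In astrocyte-, microglia-, endothelial-, pericyte- and pigment epithelium-like clusters combined, the counts were 8 of 275 (2.91%, 1.26 to 5.65) and 7 of 169 (4.14%, 1.68 to 8.35), a ratio of 0.702 (0.223 to 2.28), which spans 1.

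Post-mitotic neurons gave the background. In rod-, cone-, bipolar-, amacrine-, ganglion- and horizontal-like clusters, 7 of 7198 Mettl14-cKO cells (0.0972%, 0.0391 to 0.20) and 2 of 7076 control cells (0.0283%, 0.00342 to 0.102) met the 5-gene minimum after thinning. Both shares lie far below those of the retinal lineage as a whole. Median depth was 3126 UMIs in these Mettl14-cKO cells and 3596 in these control cells.

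Most G2/M gene-positive cells sat in 3 clusters. Cluster 27 was progenitor-like (9 of 10 markers), and its leading genes included Hist1h1b, Esco2, Pbk, Top2a and Mki67, so it is itself a cluster of cycling cells. It held 90 Mettl14-cKO and 22 control cells, of which 87 and 21 were G2/M gene-positive before thinning. Cluster 2 stayed unnamed: it had 10 of 12 Müller glia markers and 7 progenitor markers. Hes1, a Notch target kept on in progenitors and glia and here a listed progenitor marker, led its genes. Its 10 leading genes held no listed Müller glia marker. The naming rule allowed no other type more listed markers there, so Hes1 left the cluster unnamed. Cluster 2 held 1761 Mettl14-cKO cells and 103 control cells. Of these, 112 and 14 were G2/M gene-positive before thinning. Its share after thinning was 4.60% (3.63 to 5.73) in the Mettl14-cKO library and 10.4% (4.59 to 19.4) in the control library, a ratio of 0.442 (0.213 to 1.06). That share depends on how the clustering divided the libraries, since most control cells with the same glial markers lay in the Müller glia-like clusters 10 and 28 (26 and 3 Mettl14-cKO cells, 840 and 98 control cells). With clusters 2, 10 and 28 pooled, a choice made after seeing the data, 75 of 1656 Mettl14-cKO cells (4.53%, 3.58 to 5.64) and 8 of 916 control cells (0.873%, 0.378 to 1.71) were G2/M gene-positive after thinning, a ratio of 5.19 (2.50 to 12.5). Cluster 18, neurogenic progenitor-like and marked by Neurog2, Olig2 and Dll1, had 15 of 476 positive Mettl14-cKO cells and 0 of 201 control cells before thinning. The control count allows a share of up to 1.49%, taken as 3 divided by the number of cells. This 1-sided limit is tighter than the exact binomial intervals given for the other shares. The clusters named Müller glia-like, which leave out cluster 2, had 0 of 29 Mettl14-cKO cells and 1 of 938 control cells. When cell cycle genes were kept in the clustering, a cluster with the same 10 glial markers as cluster 2 was named Müller glia-like. It held 1643 Mettl14-cKO and 113 control cells.

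**Figure D2:**
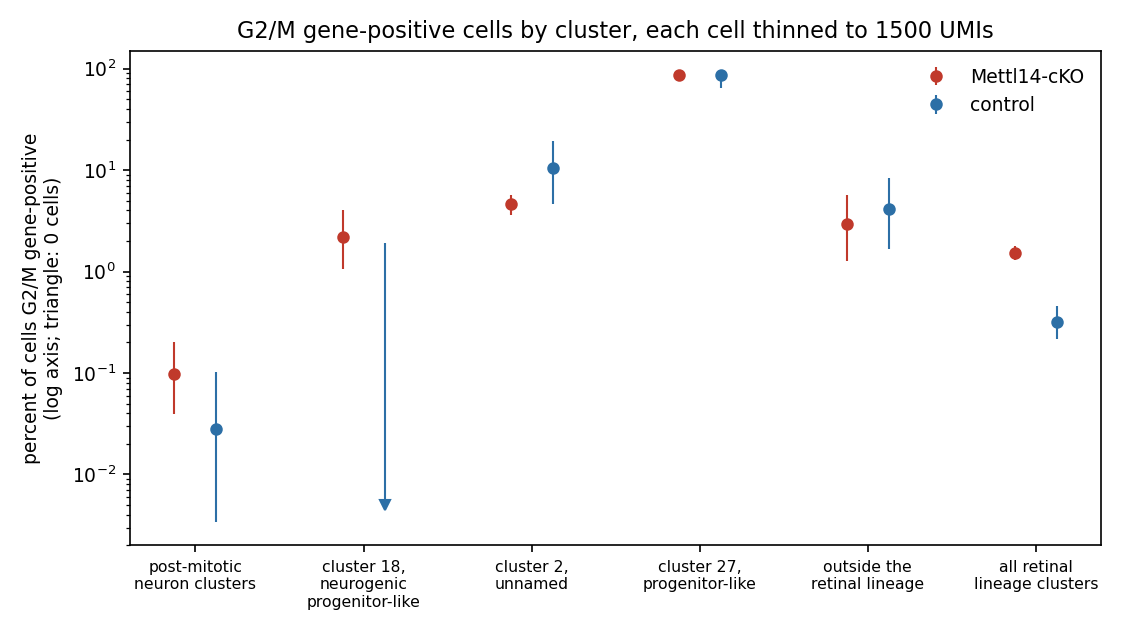
Percent of cells that were G2/M gene-positive after thinning (log axis), by cluster or group of clusters, with Mettl14-cKO in red left of control in blue; bars are exact binomial 95% intervals and a triangle marks 0 cells. The libraries differ in the retinal lineage as a whole (1.53% and 0.321%), while within cluster 27 the shares lie at 87.2% and 86.4%.

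Over all cells, 38 of the 53 members stood higher in the Mettl14-cKO library and 2 lower, with a median log2 ratio of 0.81. A member counts as higher or lower when the log2 ratio of its CPM is at least 0.32 from 0, the Poisson 95% intervals of the levels do not overlap and both libraries together hold at least 30 UMIs. By the same rule 19.5% of 16164 genes stood higher and 18.6% lower, with a median log2 ratio of -0.02. These levels combine the number of dividing cells with the level in each.

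All 9 centromere, kinetochore and passenger-complex genes stood higher. Aurkb, the kinase of the chromosomal passenger complex, gave 279 UMIs (4.77 CPM) in the Mettl14-cKO library and 72 (1.32 CPM) in the control library, a ratio of 3.61 (2.78 to 4.75). Birc5, the passenger protein survivin, gave 1148 UMIs in Mettl14-cKO and 315 in control, a ratio of 3.40 (3.00 to 3.86). Cenpf gave 1905 UMIs in Mettl14-cKO and 517 in control, a ratio of 3.43 (3.12 to 3.79). Cenpe, a kinesin that carries chromosomes to the spindle equator, gave 720 UMIs in Mettl14-cKO and 249 in control, a ratio of 2.70 (2.33 to 3.13). The smallest of the 9 ratios were 1.5 for Hjurp, the chaperone that loads the centromeric histone, and 1.5 for Cdca8, the passenger protein borealin.

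Of the 8 kinases, cyclins and their regulators, 7 stood higher and 1 lower. Cdk1 gave 654 UMIs (11.2 CPM) in Mettl14-cKO and 198 (3.63 CPM) in control, a ratio of 3.08 (2.62 to 3.63). The B-type cyclins that activate it followed with smaller ratios, 2.14 for Ccnb1 and 1.97 for Ccnb2. Cdc25c, a phosphatase that activates Cdk1, was the exception, with 50 UMIs (0.855 CPM) in Mettl14-cKO and 80 (1.47 CPM) in control, a ratio of 0.583 (0.401 to 0.840).

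All 6 spindle checkpoint and anaphase-promoting complex genes stood higher. Ube2c gave 1137 UMIs (19.4 CPM) in Mettl14-cKO and 409 (7.5 CPM) in control, a ratio of 2.59 (2.31 to 2.91). Cdc20, which activates the anaphase-promoting complex, gave 331 UMIs in Mettl14-cKO and 176 in control, a ratio of 1.75 (1.46 to 2.12). G2e3, a ubiquitin ligase, had the smallest ratio of the 6, 1.35.

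Of 13 spindle and microtubule genes, 9 stood higher and none lower. Ckap2l, a spindle protein of neural progenitors, gave 322 UMIs (5.50 CPM) in Mettl14-cKO and 92 (1.69 CPM) in control, a ratio of 3.26 (2.58 to 4.16). Kif2c, a kinesin that takes microtubules apart, gave 160 UMIs in Mettl14-cKO and 48 in control, a ratio of 3.11 (2.24 to 4.38). Tpx2, which activates Aurora A at the spindle, gave 773 UMIs in Mettl14-cKO and 264 in control, a ratio of 2.73 (2.37 to 3.15). Gtse1 had a ratio of 2.29 on 27 UMIs in Mettl14-cKO and 11 in control, with overlapping intervals, and Psrc1, Kif11 and Ckap5 did not meet the rule either.

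Of 9 chromosome and chromatin genes, 4 stood higher. Mki67 had the highest ratio of all members, with 1178 UMIs (20.1 CPM) in Mettl14-cKO and 277 (5.08 CPM) in control, a ratio of 3.96 (3.48 to 4.54). Top2a gave 1029 UMIs in Mettl14-cKO and 341 in control, a ratio of 2.81 (2.49 to 3.19). Cdca2 and Hmgb2 also stood higher, with ratios of 2.48 and 1.43. The other 5 did not meet the rule: Ctcf, the insulator protein, had a ratio of 1.04, Smc4, a condensin subunit, 0.967 (0.915 to 1.02), Cbx5, the heterochromatin protein HP1 alpha, 0.896 (0.863 to 0.929), and Anp32e, a histone chaperone, 0.812 (0.796 to 0.827). Ncapd2, another condensin subunit, had a ratio of 1.22. Of 5 cytokinesis genes, 3 (Kif23, Anln and Kif20b) stood higher, with ratios of 1.89, 1.61 and 1.44. Of 3 nuclear envelope genes, none stood higher and Lbr, the lamin B receptor, stood lower, with 844 UMIs (14.4 CPM) in Mettl14-cKO and 1155 (21.2 CPM) in control, a ratio of 0.681 (0.623 to 0.745). Rangap1, which serves nuclear transport, had a ratio of 0.973 (0.932 to 1.01).

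To read the level per dividing cell, members were summed over G2/M gene-positive cells and divided by the UMIs of those cells. The 5 genes used in that choice were read instead in cells chosen by the 10 other members, so no member was read in cells it helped to choose. The first choice held 272 Mettl14-cKO and 59 control cells with median depths of 5116 and 7052 UMIs, and the second held 197 and 44. Of 52 members measured, 4 stood higher and 5 lower, with a median log2 ratio of -0.11. The background in the cells chosen by 5 genes was 7.27% of 8545 genes higher and 5.55% lower, and in the cells chosen by 10 genes it was 7.76% of 7342 genes higher and 5.83% lower. The number of members higher is near that background, and the number lower is somewhat above it. These counting intervals do not cover the spread between the few cells summed. For Hmgb2, 1 control cell held 103 UMIs. In cells chosen by the 8 S phase genes the direction turned: 22 of 51 members measured stood higher and 0 lower, with a median log2 ratio of 0.51, against 11.4% of genes higher and 10.7% lower. That choice held 236 Mettl14-cKO and 96 control cells. In it 17 of 42 S phase genes, counting those used to choose, also stood higher and 0 lower. Ccnd1, the G1 cyclin of retinal progenitors, gave 378 CPM in Mettl14-cKO and 233 in control there. The kinds of cells chosen can thus differ between the libraries, which was not tested.

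**Figure D3:**
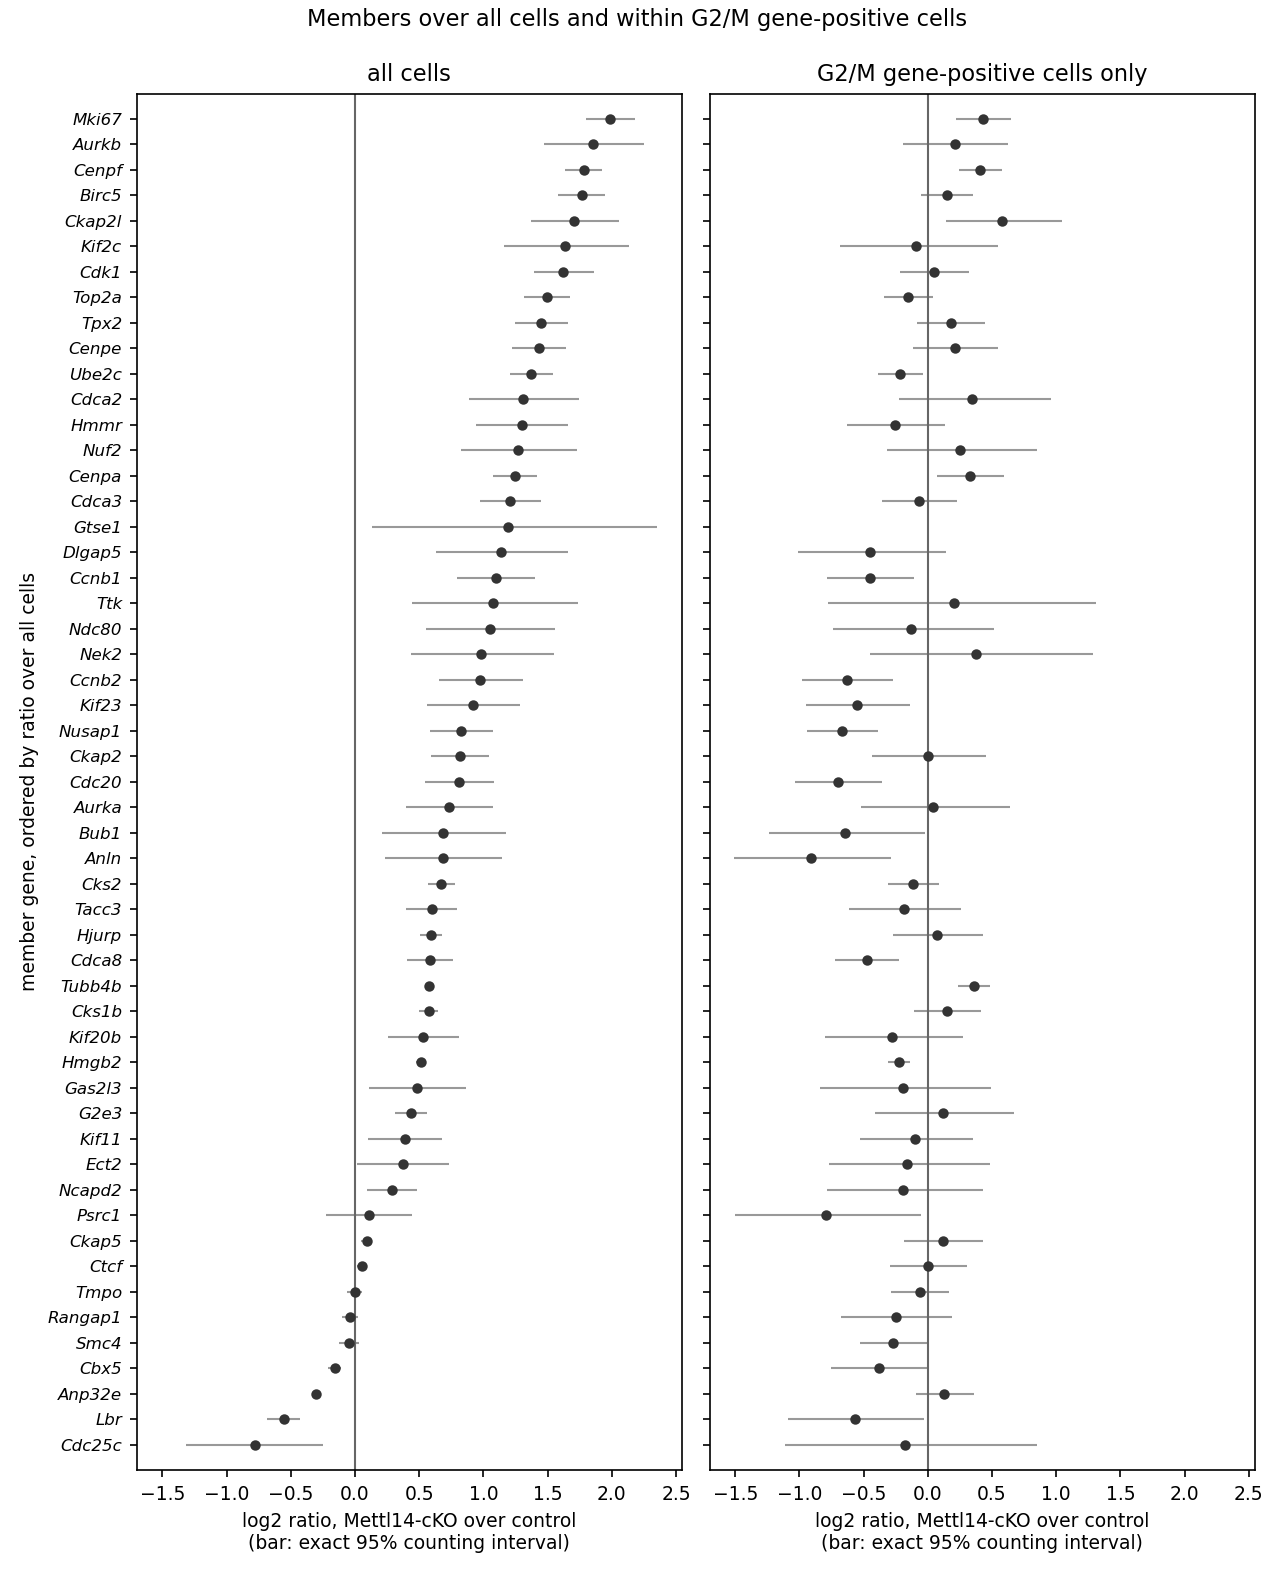
Log2 ratio of Mettl14-cKO over control for each member over all cells (left) and within G2/M gene-positive cells (right, members with at least 30 UMIs), ordered by the ratio over all cells; bars are exact 95% counting intervals. Over all cells 46 of 53 points lie above 0, and within G2/M gene-positive cells 20 of 52 do.

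The members that stood higher within these cells were Ckap2l, Mki67, Cenpf and Tubb4b. Mki67 gave 749 CPM (703 to 797) in Mettl14-cKO cells and 555 (485 to 632) in control cells, a ratio of 1.35 (1.17 to 1.57). Cenpf gave 1156 CPM in Mettl14-cKO and 872 in control, a ratio of 1.33 (1.18 to 1.49). Ckap2l gave 141 CPM in Mettl14-cKO and 94.5 in control, a ratio of 1.5 (1.10 to 2.06). Tubb4b, a beta-tubulin, gave 1526 CPM in Mettl14-cKO and 1189 in control, a ratio of 1.28 (1.18 to 1.40). Counted per cell instead, without scaling to depth, the values of these 4 were close. Mki67 averaged 5.06 UMIs per Mettl14-cKO cell and 5.14 per control cell, and Cenpf averaged 7.81 and 8.07. Ckap2l averaged 0.952 and 0.864, and Tubb4b 10.3 and 10.9. Some other members were further apart per cell. Cdk1 averaged 2.57 UMIs per Mettl14-cKO cell and 3.41 per control cell, Ube2c 5.05 and 8.02, and Top2a 4.42 and 6.73. Scaled to depth, the ratios of Cdk1, Ube2c and Top2a were 1.03, 0.862 and 0.899, and none met the rule. Aurkb was nearer per cell, at 0.938 and 1.10. Nek2, a centrosome kinase, had a ratio of 1.30 without meeting the rule, and its interval spans 1 (0.732 to 2.44).

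The 5 that stood lower were Anln, Cdc20, Nusap1, Ccnb2 and Cdca8. Nusap1, a microtubule protein of the spindle, gave 187 CPM (167 to 207) in Mettl14-cKO cells and 296 (252 to 346) in control cells, a ratio of 0.629 (0.520 to 0.764). Cdc20 gave 127 CPM in Mettl14-cKO and 206 in control, a ratio of 0.616 (0.489 to 0.779). Anln, the scaffold of the contractile ring, gave 36.5 CPM in Mettl14-cKO and 68.5 in control, a ratio of 0.533 (0.352 to 0.820). Ccnb2 had a ratio of 0.647 (0.506 to 0.831) and Cdca8 of 0.719 (0.607 to 0.855). Psrc1 and Bub1 had ratios of 0.578 and 0.639 with overlapping levels.

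Cells outside the retinal lineage were a larger part of the control choice: 14 of 265 clustered Mettl14-cKO cells (5.28%) and 11 of 58 control cells (19.0%). Summed pericyte markers stood at 108 CPM in G2/M gene-positive Mettl14-cKO cells and 1174 in control cells, endothelial markers at 588 and 913, microglial markers at 872 and 283, and red blood cell markers at 68.7 and 8590. In 1 control barcode, 75.5% of the UMIs came from red blood cell genes, while the highest Mettl14-cKO value among these cells was 2.50%. The red blood cell signal did not come from the cells outside the lineage. Of 4638 such control UMIs, 4637 lay in retinal lineage clusters (12716 CPM) and 1 outside. It therefore remained in the control cells when only retinal lineage clusters were read. In retinal lineage clusters only, 7 members stood higher (Mki67, Cenpf, Birc5, Cks1b, Ckap2l, Tubb4b and Cenpa) and 2 lower (Nusap1 and Cdca8), against a background of 6.37% higher and 4.96% lower for the cells chosen by 5 genes and 5.81% and 5.14% for those chosen by 10. Anln, Cdc20 and Ccnb2 then missed the rule. In clusters 2, 18 and 27 only, with 214 Mettl14-cKO and 35 control cells, Mki67, Cenpf, Ckap2l and Cenpa stood higher and Nusap1 and Cdca8 lower, against 5.44% and 5.01% of genes for the cells chosen by 5 genes and 5.69% and 4.83% for those chosen by 10. Mki67, Cenpf and Ckap2l were thus higher, and Nusap1 and Cdca8 lower, in each of the 3 sets of cells. These sets are nested and share most of their cells, so they are not separate support. In thinned cells, where 38 members had enough UMIs, none stood higher and 3 (Hmgb2, Ccnb1 and Cdca8) stood lower, against 3.69% and 3.84% of genes for the cells chosen by 5 genes and 3.15% and 3.23% for those chosen by 10. Mki67 had a ratio of 1.52 (1.02 to 2.34) there and Nusap1 of 0.620 (0.409 to 0.962), both with overlapping levels.

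Members differed in how far their UMIs came from dividing cells. In the Mettl14-cKO library, G2/M gene-positive cells held 3.13% of all UMIs and a median of 66.6% of a member's UMIs (3.81% to 92.5%). In the control library they held 0.990% of all UMIs and a median of 39.0% (0.893% to 90.3%). The share reached 50% for 34 members in the Mettl14-cKO library and 23 in the control library. At the upper end lay Hmmr (92.5% in Mettl14-cKO, 85.7% in control) and Aurkb (91.4% in Mettl14-cKO, 90.3% in control). The shares stood far apart for Kif11 (77.9% in Mettl14-cKO, 34.5% in control) and Cdc25c (78.0% in Mettl14-cKO, 16.3% in control). The 8 members with the smallest shares were Anp32e, Cbx5, Ctcf, Rangap1, Ckap5, Tubb4b, Hjurp and G2e3, at 3.81% to 10.9% in the Mettl14-cKO library.

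**Figure D4:**
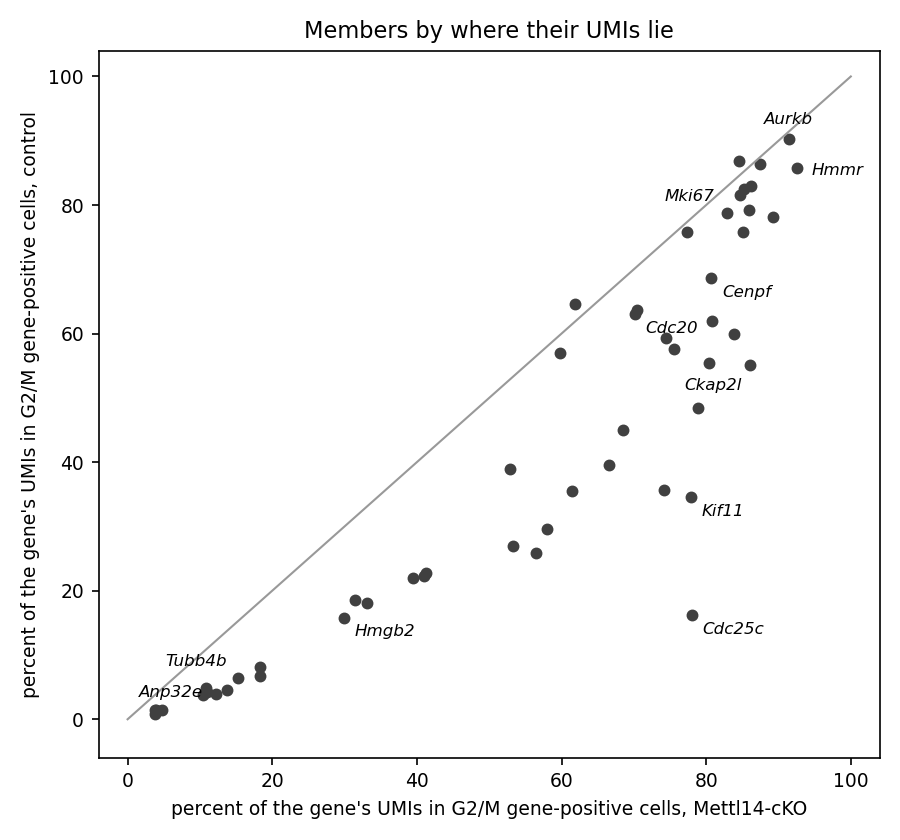
Each point is a member, placed by the percent of its UMIs held by G2/M gene-positive cells in the Mettl14-cKO library (horizontal axis) and in the control library (vertical axis); the line marks equal shares. Most points lie below the line, Aurkb and Hmmr sit at the upper right, and Cdc25c and Kif11 lie far below the line.

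Outside both choices of cells, 15 members stood higher and 3 lower of 49 measured, against 18.9% of genes in each direction. The genes used in the choices were here read in cells left out partly for lacking them. All 5 genes of the first choice were among the 15, and without them 10 of 44 stood higher and 3 lower. Before thinning, 579 Mettl14-cKO and 268 control barcodes had 1 of those 5 genes, so missed dividing cells can remain here. In post-mitotic neuron clusters outside both choices, 7 stood higher and 4 lower of 46, against 18.4% and 18.3%. Both counts lie below the background, while 32 of the 46 ratios were above 1 and their median log2 ratio was 0.21, against -0.02 over all genes measured there. The 7 were Ube2c and Birc5, both used to choose cells, and Kif2c, Cenpe, Cks1b, Tubb4b and Hjurp. Ube2c, Birc5, Kif2c and Cenpe were at the level of traces, such as Ube2c with 73 UMIs (2.0 CPM) in Mettl14-cKO and 21 (0.520 CPM) in control. After thinning, 0.347% of Mettl14-cKO neurons and 0.0989% of control neurons had a Ube2c UMI. For Cenpe these shares were 0.793% and 0.481%. Such traces can include free RNA, which was not measured apart.

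By class, 5 of 29 measured members stood higher and 3 lower in rod-like clusters, against 15.9% and 17.3% of genes. In cone-like clusters 4 stood higher and 1 lower of 22, against 13.1% and 14.9%, and in bipolar-like clusters 4 and 2 of 27, against 16.1% and 18.3%. In amacrine-like clusters 3 stood higher and 2 lower of 25, against 14.4% and 9.95%. In horizontal-like clusters 1 of 9 stood higher and 0 lower, against 4.98% and 3.69%, and in ganglion-like cells none of 14 did either, against 5.21% and 3.58%. Neurogenic progenitor-like cells had 1 of 19 higher (Tubb4b) and 0 lower, against 8.65% and 9.95%.

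Tubb4b and Hjurp had most of their UMIs in cells outside the dividing ones. Tubb4b gave 450 CPM in Mettl14-cKO neurons and 296 in control neurons, a ratio of 1.52 (1.48 to 1.56). It stood higher in rod-like (Mettl14-cKO 546, control 319 CPM), cone-like (Mettl14-cKO 559, control 329), bipolar-like (Mettl14-cKO 283, control 178), amacrine-like (Mettl14-cKO 314, control 240) and horizontal-like clusters (Mettl14-cKO 906, control 537), and was 778 CPM in Mettl14-cKO and 639 in control in ganglion-like cells, a log2 ratio of 0.28, under the minimum. Hjurp gave 47.2 CPM in Mettl14-cKO and 30.1 in control, a ratio of 1.57 (1.46 to 1.69), and its largest gap lay in amacrine-like clusters, at 76.2 CPM in Mettl14-cKO and 45.1 in control. Hmgb2, a chromatin protein of dividing cells, stood higher in bipolar-like (Mettl14-cKO 202, control 152 CPM) and amacrine-like clusters (Mettl14-cKO 78.0, control 57.6). Cks1b, a small subunit of cyclin-dependent kinase complexes, gave 48.2 CPM in Mettl14-cKO and 37.6 in control, and met the rule in rod-like (Mettl14-cKO 48.3, control 28.8) and cone-like clusters (Mettl14-cKO 36.5, control 23.6). Cbx5 stood lower in bipolar-like (Mettl14-cKO 103, control 135 CPM) and amacrine-like clusters (Mettl14-cKO 155, control 223).

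The 4 members lower in neurons were Lbr, Cdc25c, Kif11 and Psrc1. Lbr gave 12.7 CPM in Mettl14-cKO neurons and 20.7 in control neurons, a ratio of 0.613 (0.546 to 0.687). It met the rule in rod-like (Mettl14-cKO 18.3, control 29.3 CPM) and cone-like clusters (Mettl14-cKO 17.6, control 28.0), and not in bipolar-like (Mettl14-cKO 9.12, control 13.2) or amacrine-like clusters (Mettl14-cKO 10.2, control 13.2). Cdc25c gave 10 UMIs in Mettl14-cKO and 55 in control in neurons, of which 3 and 50 were in bipolar-like clusters (Mettl14-cKO 0.314, control 5.50 CPM). In control cells these came mostly from cluster 7, marked by Vsx1, Grm6 and Trpm1, with 38 UMIs in 35 of 598 cells, against 1 UMI in 445 Mettl14-cKO cells. Outside both choices of dividing cells Cdc25c gave 11 UMIs in Mettl14-cKO and 66 in control. Within G2/M gene-positive cells it gave 21.3 CPM in Mettl14-cKO and 24.1 in control, a ratio of 0.883 (0.462 to 1.80). Rod-like cells of the libraries lay in different clusters, cluster 0 for 2033 Mettl14-cKO cells and clusters 1 and 6 for 1944 and 1154 control cells, so these levels compare cells that also differ in other genes.

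**Figure D5:**
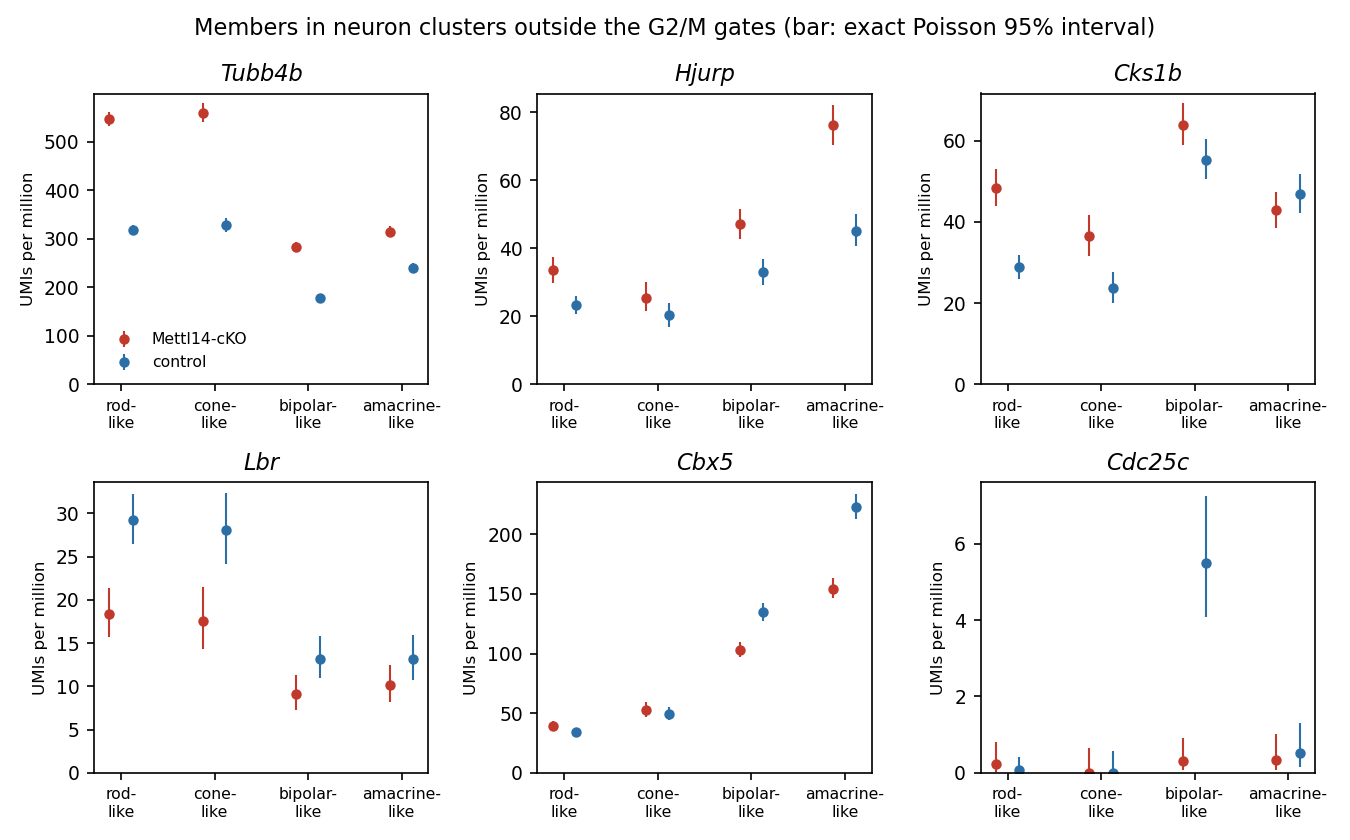
CPM of 6 members in rod-, cone-, bipolar- and amacrine-like clusters outside both choices of G2/M gene-positive cells, with Mettl14-cKO in red left of control in blue; bars are exact Poisson 95% intervals. Tubb4b stands higher in Mettl14-cKO cells in all 4 classes, Lbr lower in rod- and cone-like clusters, and Cdc25c is seen mainly in control bipolar-like cells (5.50 CPM).

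Other genes of the pathway were read in the same cells. Of 60 further G2 and M phase genes, 37 stood higher and 3 lower, with a median log2 ratio of 0.60, against 19.5% and 18.6% of all genes. The highest were Stil (Mettl14-cKO 63, control 13 UMIs, ratio 4.52), Cdca5 (Mettl14-cKO 101, control 23 UMIs, ratio 4.09), Depdc1a (Mettl14-cKO 128, control 33 UMIs, ratio 3.62) and Pbk (Mettl14-cKO 388, control 114 UMIs, ratio 3.17). The lowest were Kpna2, a nuclear import adaptor (Mettl14-cKO 2075, control 3389 UMIs, ratio 0.571), Kif22 (Mettl14-cKO 1305, control 1772 UMIs, ratio 0.687), Pttg1, which encodes securin (Mettl14-cKO 1259, control 1629 UMIs, ratio 0.720), and Mybl2 (Mettl14-cKO 27, control 31 UMIs, overlapping levels). Within G2/M gene-positive cells, 0 of 58 stood higher and 4 lower, against 7.27% and 5.55% of genes. The number lower is near that background. Of 45 S phase genes, 19 stood higher and 3 lower over all cells, against 19.5% and 18.6% of genes. Cdkn1a, the p21 inhibitor of cyclin-dependent kinases, gave 118 CPM in Mettl14-cKO and 27.3 in control over all cells, a ratio of 4.31 (4.08 to 4.57), and within G2/M gene-positive cells 105 CPM in Mettl14-cKO cells and 38.9 in control cells (Mettl14-cKO 192, control 21 UMIs), a ratio of 2.69 (1.71 to 4.45). That ratio was 4.28 in the cells chosen by 10 genes, 1.93 in those of the retinal lineage chosen by 5 genes and 4.15 in those of clusters 2, 18 and 27, on 10, 18 and 5 control UMIs. Ccnd1, the G1 cyclin of retinal progenitors, was at 568 CPM in Mettl14-cKO and 569 in control in those cells, but stood lower in those of clusters 2, 18 and 27, at 813 CPM in Mettl14-cKO cells and 1106 in control cells, a ratio of 0.734 (0.638 to 0.847).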

How the data were processed

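The deposited files hold raw UMI counts per gene and barcode for 2 libraries made with the 10x Genomics 3′ v3.1 kit, per the labels; the authors' counts came from Cell Ranger 6.1.1 on mm10, per the submitters' processing notes. Barcodes with at least 1000 UMIs were kept. Counts were summed over cells and given per 1000000 UMIs of those cells (CPM) with exact Poisson intervals; ratios have exact conditional intervals and shares exact Clopper-Pearson intervals, all at 95%. PCR duplicates were collapsed by UMI before deposit, and intervals cover counting error only. Clustering (scanpy 1.11.5, leidenalg 0.10.2; 2000 variable genes, 30 components, 20 neighbours, resolution 1) used cells with at least 500 genes and at most 15% mitochondrial UMIs, without 572 Mettl14-cKO and 781 control barcodes marked by Scrublet. A cluster was named from at least 3 listed markers at 2-fold and in 10% of its cells. No other type could have more listed markers among its 10 leading genes, and a cluster of low depth needed a marker there. Calling was tried only on simulated Poisson counts. The intervals assume the same model, so this trial does not cover the spread between cells or animals. Named genes were the 10 highest and 6 lowest members over all cells, the 5 highest and 5 lowest within G2/M gene-positive cells, the 8 with the smallest share of UMIs there and the genes used to choose cells; of other G2/M genes, the 4 highest and 4 lowest. The members and lists were chosen with earlier results of these data known. Member genes overlapping others on the same strand numbered 13, mostly with small RNAs, and Ccnb1, Ccnb2 and Tubb4b have pseudogenes named after them, whose reads could be split.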

Additional observations from a re-analysis of the deposited data

How the results depend on the processing

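No paired analysis was possible because each genotype has 1 library, and for the same reason no library could be left out. The ratio of shares stayed between 3.81 and 4.76 in 8 alternatives and was 2.48 with the S phase genes. The shares themselves were 2.01% in Mettl14-cKO and 0.516% in control without thinning, 0.977% and 0.251% with 10 other members, and 0.547% and 0.221% with S phase genes; with at least 3 of the 5 genes the Mettl14-cKO share was 0.994%. Over all cells, 32 to 39 members stood higher in 8 alternatives; the number lower was 1 at 1.5-fold, where Lbr missed the rule, and 1 with Scrublet doublets left out, where Cdc25c did. Within dividing cells the median log2 ratio lay between -0.22 and 0.00 in 8 alternatives and turned to 0.51 in cells chosen by S phase genes, where 22 members stood higher and 0 lower. Cells of that last choice also differed between the libraries in S phase genes and Ccnd1. Thinned cells gave 0 higher and 3 lower, retinal lineage clusters 7 and 2, and clusters 2, 18 and 27, a choice added after seeing the data, 2 lower. With 59 and 44 control cells, depth limits every level per dividing cell.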
